A study of Mus musculus with 12 samples.

Results

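The cytosolic ribosome is the particle that translates nearly all messenger RNA of a cell, and its protein part is encoded by the Rpl genes (large subunit) and the Rps genes (small subunit). Genes were taken from the expression table by symbol: Rpl or Rps followed by a number, the stalk genes Rplp0 to Rplp2, and Rpsa, without pseudogenes and without the S6 kinase genes Rps6k. The pattern matched 104 symbols, 17 were left out by name, and 83 of the other 87 were above 1 FPKM (an expression level per kilobase of transcript, scaled to the reads of the library) in at least 2 of 12 libraries. Canonical genes here are the standard gene of each ribosomal protein. The 83 genes comprised 45 canonical genes of the large subunit, 31 canonical genes of the small subunit, 6 paralogs (Rpl3l, Rpl7l1, Rpl22l1, Rpl39l, Rps27l and Rps27rt) and Rps19bp1, which encodes a protein that binds Rps19 and is not itself a ribosomal protein. They were 83 of 13228 genes above the same filter and of 21936 genes in the table. Genes just inside the filter were Rpl39l, with a mean of 1.3 FPKM, and Rps10, with 1.82 FPKM. The 4 genes below it were Rpl36al at 0.515 FPKM, Rpl24 at 0.279 FPKM, Rps23rg1 at 0.0201 FPKM and Rpl10l at 0 FPKM.

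The samples were eyelids of male C57BL/6 mice, 6 to 8 weeks old when they entered the study, kept in cycles of 12 hours of light and 12 hours of dark. High-fat (HF) mice ate a diet with 60% of its energy from fat, and control (CTL) mice a standard diet with 10%, for 3 months by the sample labels and 4 months by the series text. Eyelids were taken at 9h, 15h and 21h of the day, and each of the 6 groups (HF 9h, CTL 9h, HF 15h, CTL 15h, HF 21h and CTL 21h) had 2 libraries of total RNA. All mice were of 1 strain and sex and carried no stated genetic change. Samples are labelled meibomian gland, the lipid gland at the margin of the eyelid, but both lids were taken whole. Genes of the gland's lipid cells summed to between 8389 and 14110 FPKM over 18 markers, genes of skeletal muscle to between 3271 and 9014 FPKM over 17 markers, and genes of surface keratinocytes to between 4804 and 6145 FPKM over 14 markers. In such a mixed sample, fewer cells of a type and less RNA per cell cannot be told apart. Whether a library came from 1 mouse or a pool is not stated, so the p-values measure only the spread between these libraries, which may be technical.

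Ribosomal proteins are made in nearly equal numbers, and their messenger RNAs are known to share a control of translation. Many begin with a C followed by an unbroken run of pyrimidines, the 5′ terminal oligopyrimidine (TOP) tract, through which the growth kinase complex mTORC1 and the RNA-binding protein Larp1 set how well they are translated. Other shared roles are known for single members: Rpl5 and Rpl11 bind and restrain Mdm2, the negative regulator of p53, when ribosome assembly is disturbed, and Rps6 is the classic substrate of the S6 kinases downstream of mTORC1. In the liver of mice, the translation of TOP messages is known to follow the feeding rhythm. RNA levels, which are what was measured here, do not show that translation.

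RefSeq promoter sequences (build GRCm38.p6) were at hand for 63 of the 83 genes, 56 of them canonical. The windows that follow show 10 genes on which later results turn, each 30 bases on the strand of the gene with the annotated start at base 16. Capitals mark a TOP tract that begins exactly at the start base, defined as C followed by at least 4 bases that are each C or T. Rpl35, Rps15a, Rps21 and Rps27 were called higher at 21h, Rpl38 was among the lowest in HF libraries at 15h, and Rps6 is shown for its role. Rps27rt is a retrogene copy of Rps27, and Rpl4, Rplp0 and Rpl7l1 had the tract neither at their start nor within 10 bases of it.
Rpl35, chr2:39005117-39005146, minus strand: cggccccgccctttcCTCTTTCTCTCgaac
Rps15a, chr7:118116133-118116162, minus strand: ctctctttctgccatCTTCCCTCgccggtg
Rps21, chr2:180257364-180257393, plus strand: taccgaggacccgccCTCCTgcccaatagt
Rps27, chr3:90213634-90213663, minus strand: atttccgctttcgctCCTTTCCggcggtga
Rps27rt, chr9:114982725-114982754, minus strand: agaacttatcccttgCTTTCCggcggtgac
Rpl38, chr11:114668565-114668594, plus strand: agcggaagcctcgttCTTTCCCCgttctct
Rps6, chr4:86857353-86857382, minus strand: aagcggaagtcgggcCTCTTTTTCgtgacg
Rpl4, chr9:64173372-64173401, plus strand: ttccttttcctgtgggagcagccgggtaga
Rplp0, chr5:115559452-115559481, plus strand: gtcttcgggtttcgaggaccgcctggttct
Rpl7l1, chr17:46782642-46782671, minus strand: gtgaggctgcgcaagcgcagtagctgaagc

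A tract exactly at an annotated start was found in 13 of 56 canonical genes (23.2%), against 298 of 10468 filtered genes with a promoter entry (2.85%) and 3.01% of all promoters. With the tract allowed to begin anywhere from 10 bases before to 10 bases after the start, 34 of 56 canonical genes had it (60.7%), against 37.4% of filtered genes. The 7-letter word CCGGAAG, bound by ETS family factors and searched on both strands of the 300-base promoter, stood in 24 of 56 canonical promoters (42.9%), against 18.6% of filtered genes. TATAAA, the core of the TATA box, searched on the gene's strand only, stood in 5 of 56 (8.93%), against 6.99%. Annotated starts can lie away from those used in a tissue, and a match is a description of these letters. Rps27 and Rps27rt shared an unbroken run of 14 bases, ctttccggcggtga, which takes in most of the tract.

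The 76 canonical genes were among the most abundant transcripts of the eyelid, with means from 1.82 to 1905 FPKM and a median of 262.5 FPKM, against a median of 6.82 FPKM over all filtered genes. Of the 76, 65 were above 100 FPKM and 4 above 1000 FPKM. The highest were Rplp1 at 1905 FPKM and Rplp0 at 1321 FPKM, which form the stalk that recruits translation factors, followed by Rps15 at 1213 FPKM, Rps3a1 at 1032 FPKM and Rpl41 at 825 FPKM, the gene of the smallest ribosomal protein. The 100 most abundant genes included 23 members and the 200 most abundant included 47. At the low end stood Rps10 at 1.82 FPKM, Rpl13a at 5.46 FPKM, Rpl23a at 29.6 FPKM, Rpl30 at 31.4 FPKM and Rpl35 at 37.9 FPKM.

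Levels of single members carry an uncertainty from copied sequence. Of the 50-base windows of a canonical gene's transcripts, a median of 44.3% occurred also in transcripts of other genes and the share reached 98.6% for Rps27. It was 51.8% for Rps10, 57.4% for Rpl13a, 82.6% for Rpl23a and 81.7% for Rpl24, the canonical gene that fell below the filter. How the authors' counting treated reads that match several places is not given in the sources used here. Rps3, Rpl22, Rps15a, Rpl8 and Rps20 each had under 10% of their windows in other genes. These shares are over the whole annotated transcript, which can be far longer than its coding part. For Rps15a, 322 of 5130 windows were shared, in a transcript of 5179 bases with 390 coding bases. For Rps20 it was 272 of 3657 windows, in 3706 bases with 357 coding bases. A low share thus does not show a coding part free of copies. Gene lengths behind FPKM also differ between members, since the merged exons of Rps15a span 6270 bases and those of Rplp1 only 499 bases, so an order of members by FPKM is an order under that annotation.

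Together the 83 genes took between 6.47% and 9.81% of the summed FPKM of a library, and between 3.52% and 5.40% of its reads. HF libraries held 7.99% and 7.13% of summed FPKM at 9h, and CTL libraries 7.27% and 6.47%. At 15h, HF libraries held 7.16% and 7.66%, and CTL libraries 8.27% and 8.72%. At 21h, HF libraries held 9.78% and 8.61%, and CTL libraries 9.81% and 8.92%. Every library at 21h lay above every library at 9h, and at 15h both HF libraries lay below both CTL libraries. Over the 4 libraries of a time, the mean share and its SD were 7.22% ± 0.627 at 9h, 7.95% ± 0.684 at 15h and 9.28% ± 0.608 at 21h. By diet it averaged 8.06% ± 1.01 in HF libraries and 8.24% ± 1.20 in CTL libraries (SD, n = 6 each). These SDs include the differences between hours, so they are no measure for the diet difference. The averages also join opposite differences, with group means of 7.56% in HF against 6.87% in CTL libraries at 9h. At 15h the group means were 7.41% in HF against 8.495% in CTL libraries, and at 21h 9.19% against 9.36%.

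**Figure D1:**
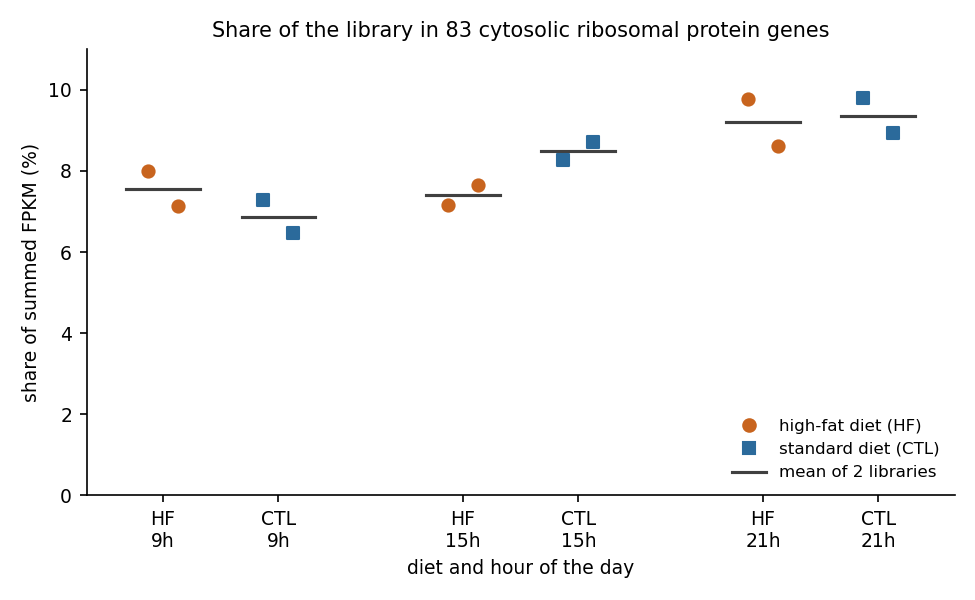
Share of the summed FPKM of each library (y axis, %) in the 83 cytosolic ribosomal protein genes, by diet and hour (x axis), with 1 point per library and a bar at the mean of 2 libraries. The 4 libraries at 21h lie between 8.61% and 9.81%, above the 4 libraries at 9h, which lie between 6.47% and 7.99%.

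Recovered library depths were close, from 14096362 to 17889158 reads, and counting error is large only for the lowest members, with 29 to 103 reads a library for Rps10 and 8 to 30 for Rpl39l. Libraries stood apart by the coding length of the members. In HF 15h replicate 2, the 25 canonical genes with under 400 coding bases lay 0.54 below their 12-library means (median, log2 scale), while the 22 with over 600 coding bases lay 0.01 below. In HF 9h replicate 6 the same classes lay 0.19 below and 0.06 above. Of the 76 canonical genes, 49 had their lowest value in CTL 9h replicate 3 and 24 in HF 15h replicate 2. The highest value fell in CTL 21h replicate 1 for 46 genes and in HF 21h replicate 3 for 28.

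The members moved together across libraries. The log2 level of a canonical gene correlated with the mean of the other canonical genes at a median r of 0.913 over 12 libraries, which share the groups and the scaling, so this is a description. The r was above 0.8 for 64 of 76 genes and above 0.9 for 42, and it was highest for Rps15a at 0.992. Among the paralogs, Rpl3l ran the other way at -0.38, and Rpl7l1 at 0.365 and Rpl39l at 0.607 followed weakly.

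**Figure D2:**
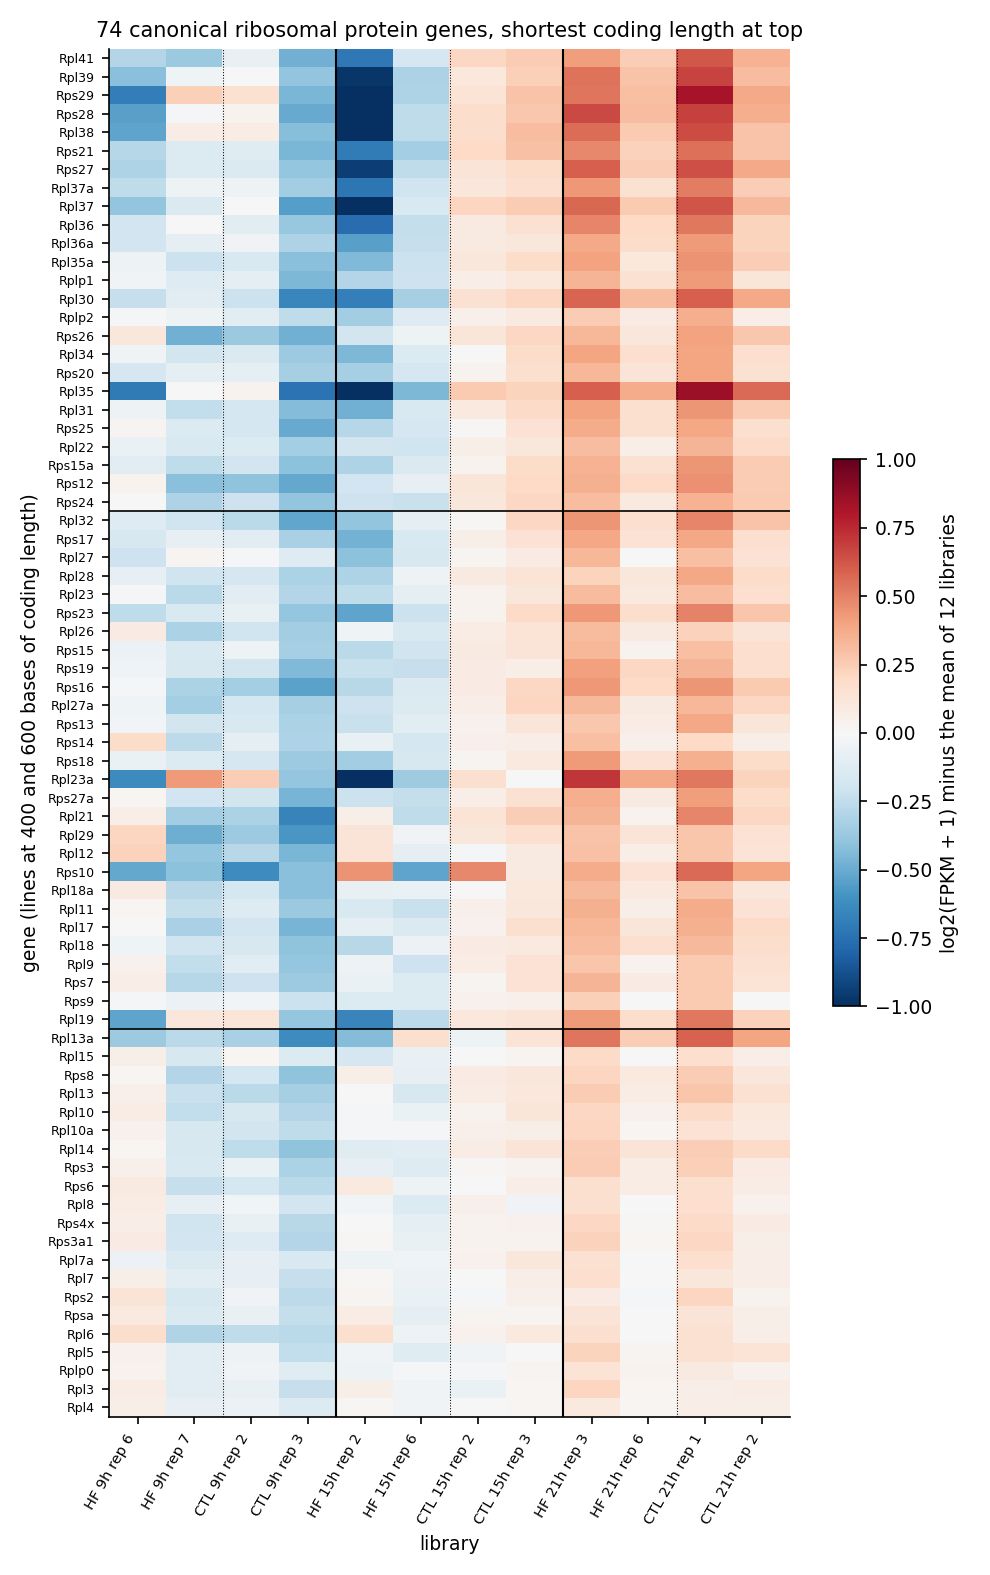
Levels of 74 of the 76 canonical genes (rows, ordered by coding length with the shortest at the top) in the 12 libraries (columns), as log2(FPKM + 1) minus the gene's mean over 12 libraries. Most genes are below their mean at 9h and above it at 21h, and the short genes at the top are lowest in HF 15h replicate 2.

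Ribosomal protein transcripts were higher in the evening. At 21h against 9h, with both diets together, 36 of the 83 genes passed an adjusted p of 0.05 and all 36 were higher at 21h, where 2.59% of all 13228 genes were called higher (limma on log2(FPKM + 1), Benjamini-Hochberg adjustment over all genes). A value was higher at 21h in 82 of the 83 genes, with a median log2 fold change of 0.44 against 0.05 over all genes. For 55 members, all 4 libraries at 21h lay above all 4 at 9h, which held for 6.24% of all genes. An unadjusted p under 0.05 was reached by 71 members, against 28.3% of all genes. Of the large subunit 18 of 45 canonical genes were called, of the small subunit 16 of 31, and of the paralogs 2 of 6.

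Among large-subunit genes, Rpl30 had the smallest p. Rpl30 stood at 45.4 and 37.6 FPKM in HF and 46.1 and 39.4 FPKM in CTL libraries at 21h, against 25.4 and 27.8 FPKM in HF and 25.8 and 18.8 FPKM in CTL libraries at 9h. The times did not overlap, and the log2 fold change was 0.77 ± 0.12 (SE, adjusted p = 0.0221). Rpl35, whose protein lies near the exit of the tunnel for the new chain, had 53.6 and 45.7 FPKM in HF and 64.4 and 52.5 FPKM in CTL libraries at 21h, against 21.1 and 35.1 FPKM in HF and 36.0 and 20.6 FPKM in CTL libraries at 9h. Its log2 fold change of 0.95 ± 0.21 (adjusted p = 0.0380) was the highest of all canonical members, with replicates at 9h that differed widely. Rpl13a, known in human cells also as part of an interferon-induced translation inhibitor complex, had 8.05 and 6.40 FPKM in HF and 8.39 and 7.18 FPKM in CTL libraries at 21h, against 3.85 and 4.17 FPKM in HF and 3.98 and 3.04 FPKM in CTL libraries at 9h. Its log2 fold change was 0.84 ± 0.14 (adjusted p = 0.0222), on levels far below those of most members. Rpl41, Rpl32, Rpl21, Rpl31 and Rpl35a were also called, with log2 fold changes from 0.51 to 0.71.

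Among small-subunit genes, Rps15a had a small p. It had 80.4 and 70.0 FPKM in HF and 86.0 and 75.4 FPKM in CTL libraries at 21h, against 58.5 and 52.6 FPKM in HF and 55.0 and 47.2 FPKM in CTL libraries at 9h. All 4 evening values were above all 4 morning values, with a log2 fold change of 0.54 ± 0.09 (adjusted p = 0.0221). Rps16 had 620 and 526 FPKM in HF and 622 and 551 FPKM in CTL libraries at 21h, against 454 and 369 FPKM in HF and 362 and 316 FPKM in CTL libraries at 9h, a log2 fold change of 0.63 ± 0.11 (adjusted p = 0.0222). Rps27a, made as a fusion to ubiquitin, rose by 0.47 ± 0.10 (adjusted p = 0.0365). Rps10 had 2.49 and 1.98 FPKM in HF and 2.99 and 2.54 FPKM in CTL libraries at 21h, against 0.893 and 1.03 FPKM in HF and 0.739 and 1.02 FPKM in CTL libraries at 9h. Its log2 fold change of 0.86 ± 0.20 (adjusted p = 0.0402) rests on 76 to 103 reads a library at 21h, against 29 to 42 at 9h. Rps12, Rps21, Rps27, Rps26 and Rps23 were called with log2 fold changes from 0.56 to 0.71.

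The canonical members that differed least between evening and morning, Rpl4, Rplp0 and Rpl8, had long coding sequences. The others in this paragraph are named for their roles and include shorter ones, and none of the following passed the threshold. Rpl4, whose protein lines the exit tunnel, had 824 and 777 FPKM in HF and 806 and 802 FPKM in CTL libraries at 21h, against 803 and 727 FPKM in HF and 739 and 699 FPKM in CTL libraries at 9h. These values overlapped, with a log2 fold change of 0.11 ± 0.08 (adjusted p = 0.392). The log2 fold change was 0.14 ± 0.09 for Rplp0 and 0.15 ± 0.09 for Rpl8. Rplp0 is used widely as a reference gene in quantitative PCR, and Rpl8 lies close to the site where peptide bonds form. The other stalk genes had higher values, 0.44 ± 0.13 for Rplp1 (adjusted p = 0.0718) and 0.30 ± 0.09 for Rplp2 (adjusted p = 0.0794). Of the p53-linked pair, Rpl11 had 0.41 ± 0.11 (adjusted p = 0.0514) and Rpl5 had 0.23 ± 0.08 (adjusted p = 0.114). Rps6 had 0.26 ± 0.10 (adjusted p = 0.117), and Rpsa, known also as the precursor of a laminin receptor, had 0.17 ± 0.09 (adjusted p = 0.255).

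The size of the difference at 21h against 9h ran with coding length. Of the 25 canonical genes with under 400 coding bases, 16 were called and the median log2 fold change was 0.54. Of the 29 with 400 to 600 coding bases, 15 were called with a median of 0.45, and of the 22 with over 600, 3 were called (Rpl13, Rpl13a and Rpl14) with a median of 0.25. Across the 76 genes the log2 fold change and log2 coding length had a Pearson r of -0.702, which is across genes of the same libraries and no independent test. Genes other than members showed the same order with smaller values: 42 higher and 10 lower calls among 790 genes under 400 bases (median 0.15), 40 and 24 among 1094 of 400 to 600 bases (0.10), and 222 and 420 among 11230 over 600 bases (0.04). In each class the median of the ribosomal protein genes was higher than that of the other genes. Whether RNA length in the libraries has a part in the result was not tested.

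**Figure D3:**
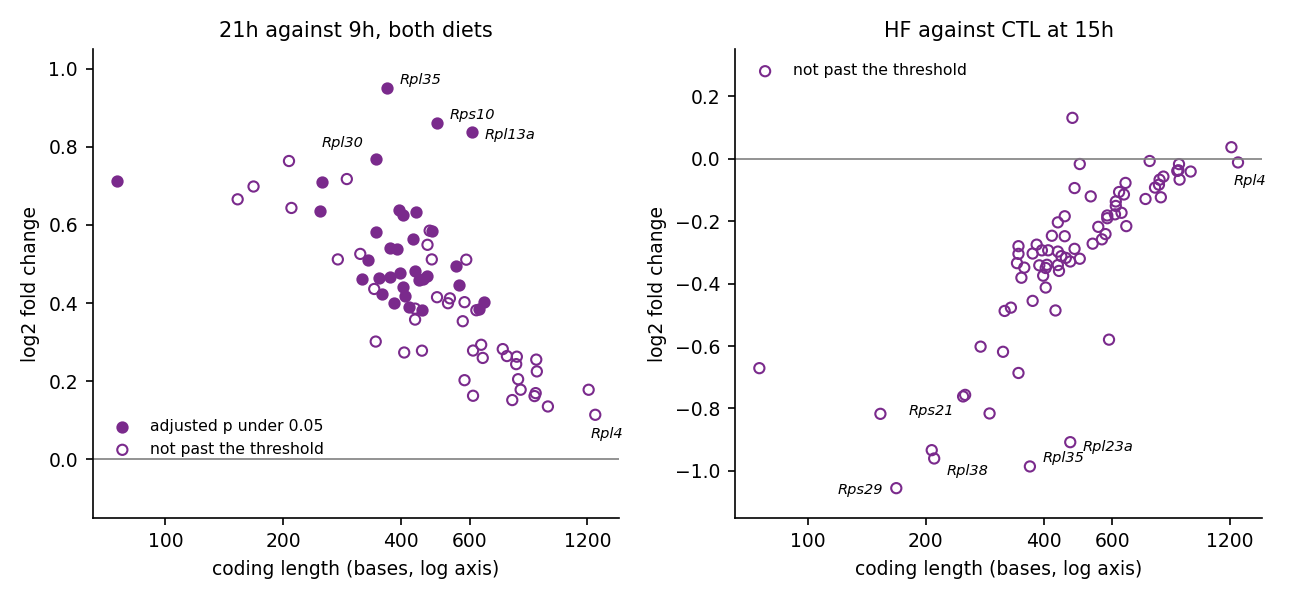
Log2 fold change (y axis) against coding length in bases (x axis, log scale) of the 76 canonical genes, for 21h against 9h with both diets (left) and for HF against CTL at 15h (right); filled points passed an adjusted p of 0.05. Short genes mostly have high values on the left and low values on the right. Exceptions include Rps10 (495 coding bases) at 0.86 and Rpl13a (609) at 0.84 on the left, and Rpl23a (468) at -0.91 on the right. The longest, such as Rpl4 at 0.11 and -0.01, lie near 0 on both sides.

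The number of calls depended on single libraries. Without HF 9h replicate 6 the count of members was 55 (54 higher), among 3375 genes called. It was 3 without HF 9h replicate 7 (Rpl30, Rps12 and Rpl22l1), 5 without HF 21h replicate 6 (Rpl30, Rpl13a, Rps15a, Rps16 and Rps19), 7 without CTL 15h replicate 2 or CTL 15h replicate 3, and 1, the lower Rpl3l, without CTL 21h replicate 1. No member was called without CTL 9h replicate 2, CTL 9h replicate 3, HF 21h replicate 3 or CTL 21h replicate 2, when 4 to 8 of all 13228 genes were. The median log2 fold change of the members stayed between 0.37 and 0.50 in all 12 of these fits.

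The difference had the same sign within each diet. From group means, the median log2 difference of the 83 members between 21h and 9h was 0.33 in HF libraries and 0.52 in CTL libraries, positive for 82 and 81 members. In HF libraries 56 members lay higher at 21h without overlap (17.3% of all genes did), and in CTL libraries 80 did (37.7% of all genes). The values of the 2 diets lay apart at the intermediate hour: the median between 15h and 9h was -0.06 in HF libraries, with 27 of 83 positive, and 0.34 in CTL libraries, with 81 of 83 positive. Between 21h and 15h the medians were 0.38 in HF libraries and 0.17 in CTL libraries. The test of diet by time called no member and no gene at all (limma; 405 of 13228 genes, 3.06%, and 6 of 83 members had an unadjusted p under 0.05; limma-voom on recovered reads called 0 with 11 members under 0.05). Its smallest member p-values were those of Rpl30 at 0.0109 and Rps21 at 0.0155, both with an adjusted p of 0.999.

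With both diets together, no member was called between neighbouring hours. At 15h against 9h, 0 of 83 members and 3 of 13228 genes (0.0227%) were called, the median was 0.12 and 12 members had an unadjusted p under 0.05, against 23.2% of all genes; limma-voom called 0 members too. The 4 libraries at 15h lay above the 4 at 9h without overlap for 2 members, Rpl7a and Rpl39l, against 3.17% of all genes. High canonical values included 0.61 for Rps10 and 0.39 for Rpl29, and the lowest were -0.28 for Rpl23a, -0.13 for Rps29 and -0.04 for Rpl27. Without HF 9h replicate 6, 8 members were called, among 2712 genes. At 21h against 15h, limma called no member and no gene, and limma-voom likewise, but 47 of 83 members had an unadjusted p under 0.05, against 4.45% of all genes, and 82 were positive with a median of 0.27. For 23 members the 4 libraries at 21h lay above the 4 at 15h without overlap, against 1.49% of all genes. The highest canonical values there were 0.85 for Rpl35, 0.83 for Rpl23a and 0.83 for Rps29. The lowest canonical values were 0.03 for Rpl6, 0.06 for Rpl4 and 0.07 for Rpsa, and the lowest paralog value was -0.01. The smallest p was that of Rpl30 (0.63 ± 0.12, unadjusted p = 0.000576, adjusted p = 0.742).

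Averaged over the 3 times, diet changed no ribosomal protein gene past the threshold. In HF against CTL libraries 0 of 83 members were called, while 262 of 13228 genes were (1.98%). The median log2 fold change of the members was -0.05, and 5 members (Rps27rt, Rps21, Rpl41, Rpl35 and Rps27l) had an unadjusted p under 0.05, against 14.1% of all genes. Canonical values ran from -0.44 for Rps29, -0.40 for Rpl35 and -0.36 for Rpl38 to 0.07 for Rpl3, 0.08 for Rpl29 and 0.08 for Rpl12. The smallest p was that of Rps27rt, with -0.42 ± 0.13 (adjusted p = 0.191), followed by Rps21 with -0.25 ± 0.10 (adjusted p = 0.301). Limma-voom called 0 members as well, and without HF 15h replicate 6 a single member, Rps27rt, was called lower.

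At 15h most members had lower values in HF than in CTL libraries, without passing the adjusted threshold. Both HF libraries lay below both CTL libraries for 67 of 83 members, a pattern found in 26.7% of all genes, and the median log2 fold change was -0.29 against -0.03 over all genes. An unadjusted p under 0.05 was reached by 33 members (11.6% of all genes), and 0 of 83 members and 8 of 13228 genes (0.0605%) were called by limma, and no gene by limma-voom. Rps21 had the smallest p: it stood at 152 and 195 FPKM in HF libraries, against 284 and 302 FPKM in CTL libraries, a log2 fold change of -0.76 ± 0.17 (unadjusted p = 0.00156, adjusted p = 0.161). Rpl30 stood at 18.3 and 23.8 FPKM in HF libraries, against 33.5 and 34.9 FPKM in CTL libraries (-0.69 ± 0.17, adjusted p = 0.207). For both genes the groups did not overlap.

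The lowest values at 15h belonged mostly to short genes, in which 1 library was lowest. Rps29, which encodes a small zinc-binding protein of the small subunit, stood at 129 and 272 FPKM in HF libraries, against 371 and 410 FPKM in CTL libraries (log2 fold change -1.06 ± 0.39, adjusted p = 0.355). Rpl38, a large-subunit protein that mice need for the translation of a subset of Hox messages, stood at 111 and 211 FPKM in HF libraries, against 284 and 313 FPKM in CTL libraries (-0.96 ± 0.32, adjusted p = 0.300). Rpl35 had -0.99 ± 0.30 (adjusted p = 0.274). For all 3 genes HF 15h replicate 2 had the lowest value of the 12 libraries. Toward the other end, Rpl3 had 0.04 ± 0.12 and Rps6 had -0.01 ± 0.14. By coding length the medians were -0.49 under 400 bases, -0.29 from 400 to 600 and -0.08 over 600, against -0.21, -0.15 and -0.02 for other genes of the same classes. Without HF 15h replicate 2 the median over members was -0.24, and 5 members (Rps21, Rpl30, Rps10, Rps27l and Rps27rt) had an unadjusted p under 0.05. Without CTL 15h replicate 3 that count was 10, and without CTL 15h replicate 2 it was 21.

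**Figure D4:**
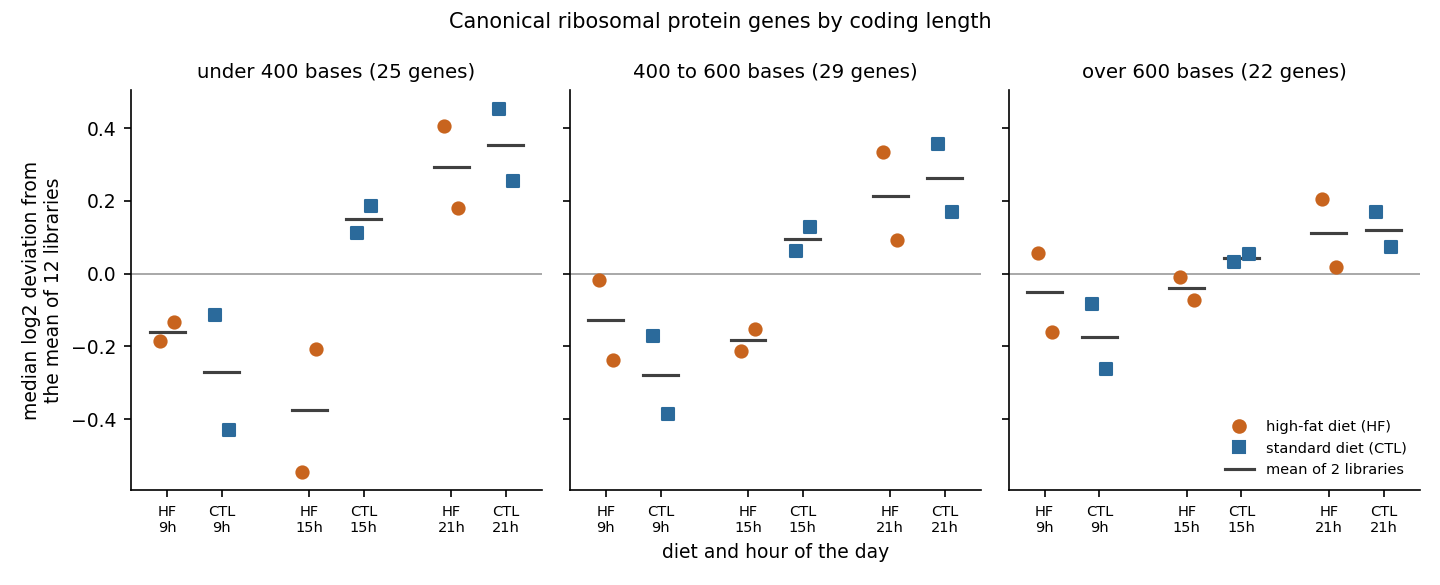
Median deviation of canonical genes from their 12-library mean (y axis, log2 units) in each library, by diet and hour (x axis), for 3 classes of coding length; points are libraries and bars the means of 2. In the shortest class HF 15h replicate 2 lies at -0.54 and CTL 21h replicate 1 at 0.45, while the longest class stays between -0.26 and 0.20.

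At 9h and at 21h diet made no called difference. At 9h, 0 of 83 members and 0 of 13228 genes were called by limma or limma-voom, the median log2 fold change in HF against CTL libraries was 0.13, and 1 member, Rpl14, had an unadjusted p under 0.05 (0.26 ± 0.11, adjusted p = 0.683), against 7.22% of all genes. Both HF libraries lay above both CTL libraries for 9 members (15% of all genes). At 15h the same 9 had both HF libraries below both CTL libraries, a pair of patterns found together in 2.78% of all genes. The pattern at 15h alone held for 67 of the 83 members. High canonical values included 0.35 for Rpl21 and 0.34 for Rpl29. The lowest canonical values were -0.07 for Rps29, -0.07 for Rpl19 and -0.06 for Rpl41, while the paralogs reached down to -0.29. At 21h, 0 members and 1 gene (0.00756%) were called, no member had an unadjusted p under 0.05 (5.37% of all genes did), and the median was -0.04, with a sign that turned when HF 21h replicate 6 or CTL 21h replicate 1 was left out (0.06 and 0.04). Both HF libraries lay below both CTL libraries for 3 members, Rps10 and Rps19bp1 among them (22.2% of all genes). Canonical values there included -0.23 for Rpl35 and -0.22 for Rps10 at the low end, and at the high end 0.05 for Rps14, 0.05 for Rps19 and 0.17 for Rpl23a.

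The paralogs split. Rpl22l1, a paralog of Rpl22, stood at 12.2 and 10.7 FPKM in HF and 13.1 and 11.1 FPKM in CTL libraries at 21h, against 5.19 and 8.99 FPKM in HF and 7.28 and 5.59 FPKM in CTL libraries at 9h. All 4 evening values were above all 4 morning values, and it rose by 0.74 ± 0.17 (adjusted p = 0.0382), while Rpl22 itself rose by 0.40 ± 0.08 (adjusted p = 0.0315). Rps27l, a paralog of Rps27 and a known p53 target, stood at 132 and 121 FPKM in HF and 125 and 121 FPKM in CTL libraries at 21h, against 85.2 and 99.1 FPKM in HF and 106 and 92.3 FPKM in CTL libraries at 9h. It rose by 0.38 ± 0.09 (adjusted p = 0.0399), and Rps27 by 0.71 ± 0.16 (adjusted p = 0.0362). Rps27rt had 0.60 ± 0.16 (adjusted p = 0.0583), and as 91.1% of its windows occur in other genes its reads and those of Rps27 may not be separable.

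Rpl3l, the striated-muscle paralog of Rpl3, went the other way. It stood at 21.3 and 28.6 FPKM in HF and 29.6 and 17.8 FPKM in CTL libraries at 21h, against 39.4 and 42.7 FPKM in HF and 43.5 and 36.1 FPKM in CTL libraries at 9h. The times did not overlap, with a log2 fold change of -0.74 ± 0.18 and an adjusted p of 0.0501, just short of the threshold, and at 15h against 9h it had -0.73 ± 0.18 (adjusted p = 0.0922). None of its windows occurred in other genes. Rpl3 had 0.18 ± 0.09 (adjusted p = 0.203). Rpl7l1 (0.05 ± 0.06), Rpl39l (0.48 ± 0.17 at about 1 FPKM, adjusted p = 0.109) and Rps19bp1 (0.14 ± 0.10) did not pass the threshold.

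**Figure D5:**
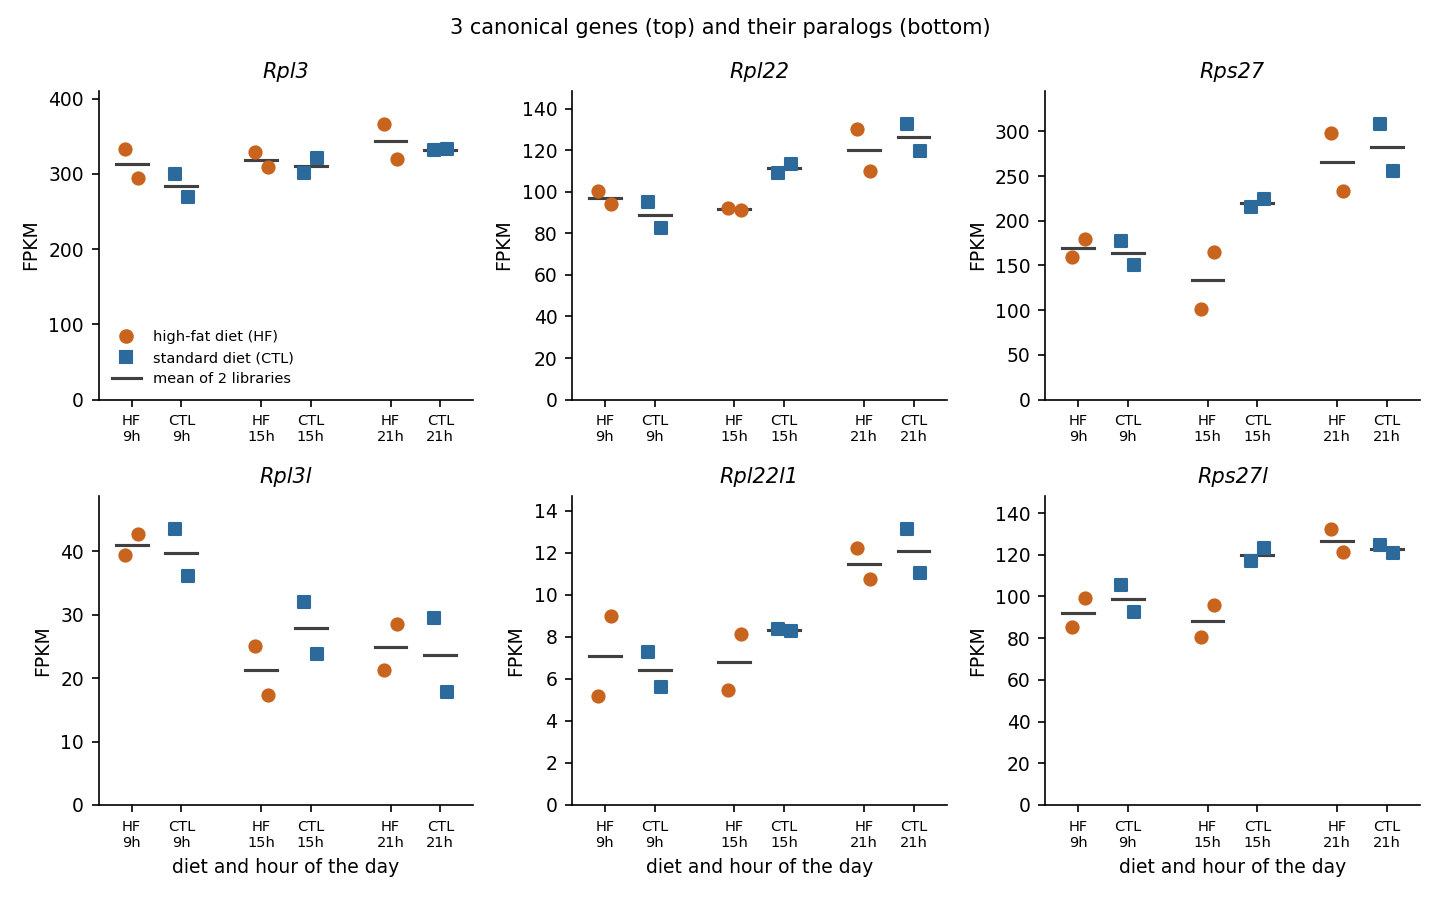
FPKM (y axis, from 0) of 3 canonical genes (top) and their paralogs (bottom) in each library, by diet and hour (x axis); points are libraries and bars the means of 2. Rpl22l1 and Rps27l are higher at 21h than at 9h in every library, and Rpl3l is lower.

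Markers of skeletal muscle moved with the hour. At 21h against 9h, 9 of 17 muscle markers were called lower and none higher, with a median log2 fold change of -0.75. Their summed level lay between 3641 and 5512 FPKM at 21h, against 7074 to 9014 FPKM at 9h. Acta1, skeletal actin, stood at 814 and 914 FPKM in HF and 1208 and 721 FPKM in CTL libraries at 21h, against 1496 and 2083 FPKM in HF and 2067 and 1698 FPKM in CTL libraries at 9h. Markers of keratinocytes, lipid cells of the gland, conjunctiva, fibroblasts, endothelium, T cells, B cells and macrophages had no called gene in this comparison. The part of tissue composition in the ribosomal protein difference was not tested.

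At 15h, several other gene lists also had lower values in HF than in CTL libraries, and 1 of them held called genes. Of the 17 interferon response genes, 2 were called lower, with a median log2 fold change of -2.12. The 12 macrophage markers had a median of -0.90, with summed levels of 352 and 1124 FPKM in HF libraries, against 1039 and 1372 FPKM in CTL libraries. The 11 T cell markers had a median of -0.54, with sums of 35.7 and 44.3 FPKM in HF libraries, against 47.8 and 74.2 FPKM in CTL libraries. The 5 B and plasma cell markers had a median of -1.11, with sums of 119 and 91.4 FPKM in HF libraries, against 127 and 181 FPKM in CTL libraries. For the T cell and the B and plasma cell markers both HF sums lay below both CTL sums, while the macrophage sums overlapped. The 17 skeletal muscle markers had a median of -0.27, with sums of 4250 and 3271 FPKM in HF libraries, against 6130 and 4797 FPKM in CTL libraries, without overlap. The 11 fibroblast and matrix markers had a median of -0.48 and the 15 cell cycle genes one of -0.32. For the fibroblast list the HF libraries differed, with sums of 454 and 882 FPKM, against 920 and 954 FPKM in CTL libraries. Its median deviation from the 12-library mean was -0.64 in HF replicate 2 and 0.34 in HF replicate 6. The CTL libraries had 0.20 and 0.30, so the lower values lay mostly in HF 15h replicate 2. The 77 mitochondrial ribosomal proteins, which build the ribosome of another compartment, had a median of -0.23 with 5 positive, and 23 of them had an unadjusted p under 0.05. The 20 nuclear-encoded respiratory chain genes had a median of -0.29, with 8 under that p. Log2 fold changes were positive for all 18 markers of the gland's lipid cells (median 0.37) and for all 14 immediate early genes (median 0.81). The immediate early sums were 497.5 and 1325 FPKM in HF libraries, against 455.5 and 448.2 FPKM in CTL libraries. Most of that difference lay in HF 15h replicate 6. None of the lists other than the interferon response held a called gene. The part of these lists in the members' values was not tested.

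Ribosomal proteins with other symbols were read beside the members at 21h against 9h. Fau, a ubiquitin-like fusion to a small-subunit protein, had 0.35 ± 0.09 (adjusted p = 0.0521), and Rack1, a scaffold on the small subunit, had 0.17 ± 0.08 (adjusted p = 0.205). Of 77 mitochondrial ribosomal protein genes, 3 were called higher and none lower, where 2.59% of all genes were called higher. The median of the list was 0.08, and the 3 were Mrps6 (0.90 ± 0.14), Mrps18c (0.73 ± 0.17) and Mrps17 (0.32 ± 0.07).

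Genes that build or regulate ribosomes were read in the same comparison. There 796 of all 13228 genes were called in either direction, so a single call says little about a list. Of 40 ribosome biogenesis factors, 1 was called, Nop56, a core protein of the box C/D small nucleolar ribonucleoproteins, which rose by 0.51 ± 0.10 (adjusted p = 0.0313), and the median of the list was 0.14. Of 18 translation factors whose messages carry TOP tracts, none was called and the median was 0.02, with the smallest p-values for Hnrnpa1 (0.30 ± 0.09) and Eif4a2 (0.53 ± 0.16). Of 23 genes of mTORC1 and TOP control, 1 was called, Eif4ebp2, a repressor of cap-dependent initiation that mTORC1 inactivates. Eif4ebp2 stood at 30.8 and 31.7 FPKM in HF and 30.0 and 32.4 FPKM in CTL libraries at 21h, against 34.7 and 53.9 FPKM in HF and 51.0 and 53.4 FPKM in CTL libraries at 9h, a log2 fold change of -0.59 ± 0.12 (adjusted p = 0.0331). Of 10 p53 targets and ribosomal stress genes, 1 was called, Ccng1, at -0.49 ± 0.10 (adjusted p = 0.0313). For the diet at 15h, none of these lists had a called gene.

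Within the members, 9 of the 13 canonical genes with a TOP tract at their annotated start were called at 21h against 9h, with a median of 0.51, and 18 of 43 canonical genes whose promoter entry lacked it, with a median of 0.40. The 13 genes include many short ones, so tract and length are not separated. Split by copied sequence, 3 of 6 canonical genes with under 10% of windows in other genes were called (Rps15a, Rps20 and Rpl22), 21 of 39 with 10 to 50%, and 10 of 31 with more. The shares are over whole transcripts, so the lowest class can still hold copied coding sequence.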

How the data were processed

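The authors deposited 1 table of FPKM values per gene and library for RNA of 12 eyelid samples. HISAT2 2.0.5, HTSeq 0.9.1, DESeq 1.30.0 and the build mm9 are named in the submitters' processing notes, per the labels. FPKM times the merged exon length of GENCODE M21 genes gave whole reads, within 0.02 reads, for at least 98.1% of nonzero values, from which depths of 14096362 to 17889158 were recovered. Genes above 1 FPKM in at least 2 libraries (13228) were tested with limma 3.58.1 (R 4.3.3) on log2(FPKM + 1), which understates the change of low genes, with 6 group means, a mean-variance trend and Benjamini-Hochberg adjustment; the call threshold was 0.05. The steps were tested on simulated data in which each gene was drawn independently. That does not cover shifts shared by many genes of a library. Alternatives were a pseudocount of 0.1, no filter, 3 other scalings, limma-voom on recovered reads, a replicate block, only the libraries of 1 time, and leaving out each library. Members and gene lists were chosen with earlier results of these data known. Named genes were the 5 highest and 5 lowest members, the 3 highest and lowest canonical fold changes and up to 3 smallest p-values of a comparison, paralogs, members named for their roles, and called genes of the other lists, or the 2 with the smallest p; other members were named after their values were seen. TOP tracts and words were searched in RefSeq promoters (GRCm38.p6). Coding lengths came from GENCODE M21. Some genes are not reported here by name.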

Additional observations from a re-analysis of the deposited data

Results flagged for a closer look

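For 9 of 83 members both HF libraries lay above both CTL libraries at 9h and below both at 15h, a pattern found in 2.78% of all 13228 genes. The 9h part alone held for the same 9 members, against 15% of all genes. The 15h part alone held for 67 members, against 26.7% of all genes, so most members had it whatever their values at 9h. The log2 fold change of diet at 15h minus that at 9h was -0.391 for Rpl13, -0.481 for Rps18, -0.586 for Rps25, -0.454 for Rplp2, -0.472 for Rpl14, -0.634 for Rps16, -0.242 for Rpl10a, -0.51 for Rps19 and -0.586 for Rpl32. These 9 were picked for the lack of overlap in both directions, and the difference between these 2 times was not tested by itself. The test of diet by time over all 3 hours called none of them.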

How the results depend on the processing

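The count of 36 members called at 21h against 9h was 14 without the filter on low values (429 of 18451 genes called), 35 with a pseudocount of 0.1, 27 with median-ratio scaling (26 higher), 35 as TPM, 38 when scaled by other genes and 46 with limma-voom on recovered reads (45 higher). Where 1 member was lower, as in the last 4, it was Rpl3l. Leaving out 1 library at a time gave 0 to 55 calls for 21h against 9h, 0 to 8 for 15h against 9h and 0 to 1 for diet averaged over times. Without HF 9h replicate 6 and HF 15h replicate 2 together, an alternative chosen after seeing the data, 60 members were called at 21h against 9h, among 3769 genes called (796 with all 12 libraries), and 4 at 15h against 9h (Rpl29, Rps12 and Rps26 higher, Rpl3l lower), among 2215 genes called (3 with all 12). Medians of the members moved by less than the spread between replicate libraries of 0.12 in every fit named here, and leave-one-out medians ran from 0.37 to 0.50 at 21h against 9h, from 0.06 to 0.18 at 15h against 9h, from 0.21 to 0.31 at 21h against 15h, from -0.09 to -0.02 for diet averaged over times, and from 0.02 to 0.23, -0.32 to -0.24 and -0.14 to 0.06 for diet at 9h, 15h and 21h. With the replicate block, 0 members and 0 genes were called at 21h against 9h, with 2 residual degrees of freedom. The labels do not say whether the replicate numbers pair libraries. In deviations from the group means, 12 same-numbered pairs correlated at -0.502 to 0.289. Of 10 libraries, 2 correlated best with one of their own number, HF 15h replicate 6 and HF 21h replicate 6, with each other at 0.289. With 2 libraries a group, the deviations of a group mirror each other, so this check cannot decide whether the numbers mark a pairing. Rpl7l1 turned to -0.00356 with median-ratio scaling and -0.00157 with the block. The mean share of the library at 21h was 1.29 times that at 9h, and 1.29 to 1.31 times under its 3 alternatives. The cause of these shifts was not tested. Depth limits the members under 3 FPKM, Rps10 and Rpl39l.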
